A study of Homo sapiens with 10 samples.

Results

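The 8 genes described here, CLTCL1, COL5A2, RFTN1, FREM2, CNP, FBXO32, PCP4 and GPRC5B, were selected on their signals in these data: their transcripts were lower with calcitriol than in untreated cells on all 6 calcitriol arrays, as were those of 12.9% of all genes tested. By size of the mean fall they held 8 of the first 10 places among 283 genes that passed the test described below and were lower on all 6 arrays. These 8 are among 19775 genes that had a probe set with a single gene symbol on the array, and 20 of 41091 such probe sets belong to them. All 8 passed the filter on low signals, as did 12034 genes in all. Because the fall with calcitriol picked the genes, its size and the counts of calls for it are given below as a description from which nothing is read. The contrasts that did not pick the genes are the differences between D3 times, the siRNA and their combination. They use the same arrays and their spread, so they are not fully independent of the picking.

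RNA came from SKBR3, an established line of breast carcinoma cells with amplified HER2 and mutant p53, grown in medium with 10% charcoal-stripped serum. All cells had received an siRNA. It was aimed at p53 in the p53i arm and, as a negative control, at LacZ of bacteria in the LacZi arm. Each siRNA had 5 arrays: 1 array each after 8, 20 and 50 h with 1alpha,25-dihydroxyvitamin D3 at 100 nM (calcitriol, D3 below), and 2 untreated arrays labelled as biological replicates. D3 is placed 24 h after transfection in the sample text and 48 h in the series text. The labels give no untreated array for any of the D3 times, so the effects of D3 and of longer culture cannot be told apart. In bulk RNA, fewer cells with a transcript and less transcript per cell cannot be told apart either. Values are MAS5 signals, the array software's summary of a probe set's brightness on a linear scale, and they do not allow the level of one gene to be set against that of another.

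Calcitriol is the ligand of the vitamin D receptor, a nuclear receptor that pairs with a retinoid X receptor and binds DNA at repeated hexamers 3 bases apart. Bound receptor is best known for switching genes on, among them CYP24A1, the enzyme that breaks calcitriol down. Repression is less well described and can run through other proteins or later steps. The 8 genes have different known roles. CLTCL1 is the second clathrin heavy chain of humans, RFTN1 (raftlin) is a protein of lipid rafts and GPRC5B is an orphan G protein-coupled receptor. COL5A2 is a chain of fibril-forming type V collagen, and FREM2 is a basement membrane protein of the Fraser complex. CNP is the cyclic nucleotide phosphodiesterase of myelin, FBXO32 (atrogin) brings substrates to an SCF ubiquitin ligase, and PCP4 is a small calmodulin-binding protein first found in Purkinje cells.

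RefSeq promoter sequence was matched by symbol for 5 of the 8 genes (CLTCL1, RFTN1, GPRC5B, FREM2 and CNP, the last with 2 start sites, so 6 promoters). The 250 bases before each start were searched on both strands for the receptor hexamers AGGTCA, or GGGTCA, or else AGTTCA, or GGTTCA, and for the GC box GGGCGG. The RFTN1 and GPRC5B sequences are shown because they are the 2 of 5 genes with a hexamer, and that of CLTCL1 because it holds 8 GC boxes. Each runs 5′ to 3′ toward the start on the gene's own strand (build GRCh38.p14), and capitals mark the hexamers in RFTN1 and GPRC5B and the GC boxes in CLTCL1. The 3 regions are chr3:16513700-16513949 (RFTN1), chr16:19885635-19885884 (GPRC5B) and chr22:19291720-19291969 (CLTCL1), all on the minus strand and directly upstream of the annotated start.
RFTN1: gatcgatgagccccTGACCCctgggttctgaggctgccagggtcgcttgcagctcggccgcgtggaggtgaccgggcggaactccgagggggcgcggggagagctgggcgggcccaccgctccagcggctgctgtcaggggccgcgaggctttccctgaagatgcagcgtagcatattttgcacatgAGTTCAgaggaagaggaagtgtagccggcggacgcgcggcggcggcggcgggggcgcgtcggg
GPRC5B: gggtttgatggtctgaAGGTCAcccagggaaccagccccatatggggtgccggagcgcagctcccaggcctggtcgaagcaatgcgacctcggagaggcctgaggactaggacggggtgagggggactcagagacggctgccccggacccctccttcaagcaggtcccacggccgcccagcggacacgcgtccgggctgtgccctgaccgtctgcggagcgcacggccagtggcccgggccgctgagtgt
CLTCL1: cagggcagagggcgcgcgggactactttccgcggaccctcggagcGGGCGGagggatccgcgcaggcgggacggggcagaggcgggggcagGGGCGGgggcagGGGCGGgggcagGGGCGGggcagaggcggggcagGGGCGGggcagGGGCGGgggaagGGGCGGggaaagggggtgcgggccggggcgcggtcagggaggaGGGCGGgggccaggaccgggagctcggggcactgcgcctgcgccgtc

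In RFTN1 the hexamers were GGGTCA, read on the opposite strand, and AGTTCA 63 bases before the start. The first is printed as TGACCC, with the leftmost printed base 236 bases before the start. In GPRC5B it was AGGTCA, 234 bases before the start. Any of the 4 hexamers occurs in 33.8% of the 35116 promoter stretches of this length in the table. A pair of hexamers 3 bases apart occurs in 0.0655% of them and in none of the 6 promoters of these genes. The GC box occurs in 42.6% of all promoters, and 0.584% have 8 or more. The CLTCL1 stretch was 82.4% G or C, against a median of 58.0% over all promoters. No capital letters of one motif overlap another, and a match describes letters only.

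All 10 arrays had been scaled to a common level, with median signals of 35.7 to 44.3. CYP24A1 had signals of 4234 to 6476 on the 6 D3 arrays and 23.71 to 40.02 on the 4 untreated arrays, without overlap in either siRNA. Of 10 markers of SKBR3 and luminal HER2-positive cells, 9 passed the filter on low signals. Of the markers measured for other cells that make these proteins, 2 of 10 passed for fibroblasts, 2 of 9 for oligodendrocytes, 4 of 9 for neurons and 2 of 10 for skeletal muscle. None of these passing markers was called for D3, and 1 had an unadjusted p under 0.05. The summed signals of each list overlapped between D3 and untreated arrays, as for fibroblasts (429 to 647 with D3 and 467 to 550 untreated) and oligodendrocytes (197 to 244 with D3 and 156 to 217 untreated). The 3′ to 5′ signal ratio of ACTB, which grows as RNA is degraded or labelled incompletely, was 4.60 to 7.11 on D3 arrays and 3.79 to 8.72 on untreated arrays, and 4.39 to 8.72 in p53i cells and 3.79 to 5.05 in LacZi cells. Knockdown of the siRNA's own target was not analysed here.

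CLTCL1, whose protein coats vesicles that sort cargo between the cell surface and internal membranes, had the deepest fall of the 8 genes in each siRNA, at 20 h. Its signals in p53i cells were 135 and 151 untreated, 104 at 8 h, 15.7 at 20 h and 40.5 at 50 h. LacZi cells gave 168 and 150 untreated, 98.2 at 8 h, 29.4 at 20 h and 76.7 at 50 h. In both siRNAs the 20 h array was lowest and the 50 h array lay between it and the 8 h array. On the log2(signal + 16) scale used for all differences here, CLTCL1 changed from the untreated level by -0.51 after 8 h, -2.13 after 20 h and -1.20 after 50 h (SE 0.24, 2 D3 arrays a time and 4 untreated arrays). The 15.7 and 29.4 are below the filter level of 35.3, where signals are noisy and the offset of 16 shrinks differences. Its probe set, 205944_s_at, is of the kind that can match several transcripts. CLTC, the main clathrin heavy chain, had signals of 4779 to 5236 with D3 and 4838 to 5446 untreated (difference -0.04 ± 0.06, SE; limma adjusted p = 0.767).

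RFTN1 changed slowly and was lowest at 50 h in both siRNAs. In p53i cells its signals were 332 and 275 untreated, 202 at 8 h, 158 at 20 h and 61.2 at 50 h. LacZi signals were 230 and 185 untreated, 141 at 8 h, 104 at 20 h and 62.5 at 50 h. Each later array was lower than the one before it. The signal in p53i cells was above that in LacZi cells up to 20 h, by 0.54 on the log2 scale at that time, and about equal to it at 50 h (-0.03). Against untreated cells the changes were -0.53 after 8 h, -0.88 after 20 h and -1.77 after 50 h (SE 0.19), the last being the largest change of the 8 genes at that time.

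GPRC5B reached most of its fall by 8 h. In p53i cells its signals were 209 and 144 untreated, 74.5 at 8 h, 96.1 at 20 h and 86.2 at 50 h. In LacZi cells they were 307 and 228 untreated, 136 at 8 h, 177 at 20 h and 101 at 50 h. At 20 h the signal was above that at 8 h in both siRNAs. The changes were -0.98, -0.65 and -1.08 at 8, 20 and 50 h (SE 0.21).

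COL5A2 was one of the 3 genes whose D3 and untreated signals did not overlap. Its signals in p53i cells were 316 and 273 untreated, 142 at 8 h, 147 at 20 h and 105 at 50 h. LacZi cells had 341 and 389 untreated, 172 at 8 h, 131 at 20 h and 122 at 50 h. Its highest D3 signal, 172, was well below the lowest untreated signal, 273. The changes were -0.997, -1.15 and -1.41 at 8, 20 and 50 h (SE 0.17).

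FREM2, which sits with FRAS1 in the basement membrane, was lower at each later time in both siRNAs. In p53i cells its signals were 349 and 262 untreated, 185 at 8 h, 177 at 20 h and 107 at 50 h. LacZi arrays gave 260 and 162 untreated, 132 at 8 h, 86.6 at 20 h and 80.7 at 50 h. In p53i cells the D3 arrays at 8 and 20 h lay above the lower LacZi untreated array, so the groups overlap across siRNAs but not within one. The changes were -0.62, -0.92 and -1.28 at 8, 20 and 50 h (SE 0.22).

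CNP had untreated duplicates far apart. Its signals in p53i cells were 1676 and 1089 untreated, 661 at 8 h, 755 at 20 h and 641 at 50 h. In LacZi cells they were 1187 and 591 untreated, 523 at 8 h, 350 at 20 h and 461 at 50 h. All 3 D3 arrays of each siRNA were below both of its untreated arrays, but in LacZi cells the 8 h array was only 0.17 below the lower duplicate, while the duplicates differed by 0.99. The changes were -0.84, -1.02 and -0.95 at 8, 20 and 50 h (SE 0.25).

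FBXO32, known in muscle as a gene that FOXO factors switch on during atrophy, was also spread in the untreated cells. Probe set 225803_at gave 1525 and 821 untreated, 501 at 8 h, 477 at 20 h and 739 at 50 h in p53i cells. In LacZi cells it gave 1124 and 758 untreated, 514 at 8 h, 499 at 20 h and 457 at 50 h. In p53i cells the array at 50 h lay only 0.15 below the lower p53i duplicate. The changes were -0.98, -1.03 and -0.79 at 8, 20 and 50 h (SE 0.24).

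PCP4 changed in steps. In p53i cells its signals were 1069 and 949 untreated, 750 at 8 h, 517 at 20 h and 433 at 50 h. Those of LacZi cells were 987 and 731 untreated, 555 at 8 h, 457 at 20 h and 301 at 50 h. Each later D3 array was lower than the one before it in both siRNAs. The changes were -0.51, -0.91 and -1.32 at 8, 20 and 50 h (SE 0.14), with the smallest error of the 8 genes.

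**Figure D1:**
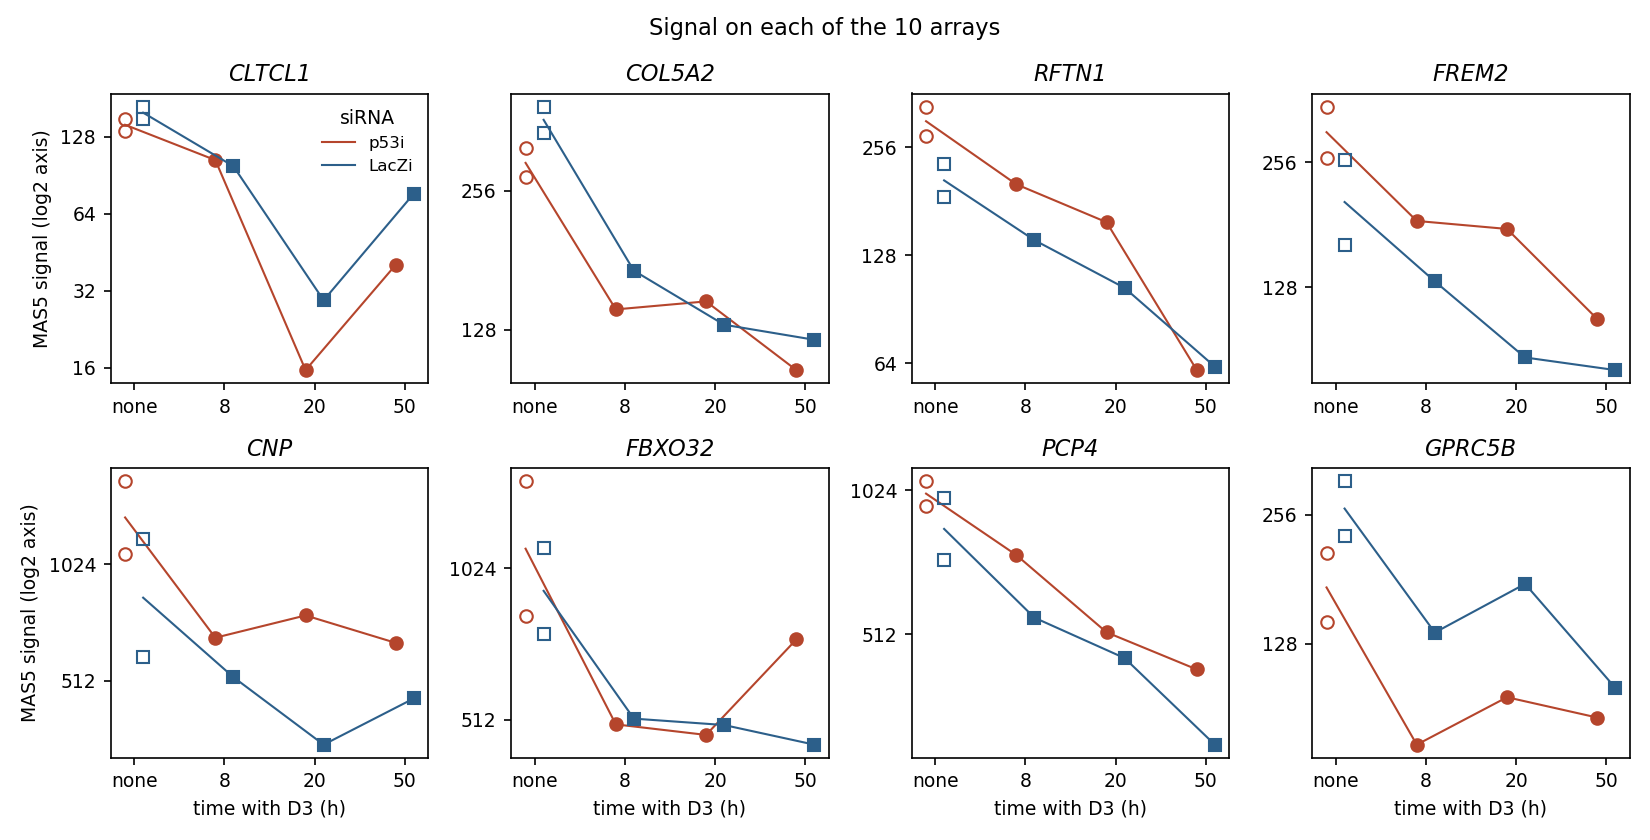
MAS5 signal of each of the 8 genes (vertical axes, log2 scale) on the untreated arrays (open points) and at 8, 20 and 50 h of D3 (filled points), in p53i (circles) and LacZi (squares) cells. Lines start at the mean of the untreated duplicates; COL5A2 lies at or below 172 on every D3 array and at or above 273 on every untreated array, whereas the CLTCL1 minimum is at 20 h and that of RFTN1 at 50 h.

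Within each siRNA the 3 D3 arrays lay below both untreated arrays for 8 of 8 genes, a pattern that 5.19% of all genes showed and that is close to how the 8 were picked. The 6 D3 arrays lay below all 4 untreated arrays for CLTCL1, COL5A2 and FBXO32, against 2.47% of all genes. Averaged over the 3 times, the changes ran from -1.28 ± 0.18 (SE) for CLTCL1 to -0.90 ± 0.16 for GPRC5B. By the limma test at an adjusted p under 0.05, 8 of 8 genes were lower with D3 averaged over the 3 times, where 2.41% of all genes were lower. At 8 h this held for COL5A2 alone (1 of 8; 0.0332% of all genes lower). At 20 h it held for CLTCL1, COL5A2 and PCP4 (3 of 8; 0.233%), and at 50 h for 6 of 8 (2.48%), all but CNP and FBXO32. These counts belong to the contrast that picked the genes and are printed as a description only. The count at 8 h was 0 in 9 of 10 fits without 1 array. Without the first LacZi untreated replicate the count over the 3 times was 5, and 1.03% of all genes were called, against 4.4% in the full fit. Leaving out the p53i 20 h array or either 50 h array leaves 1 array at that time. Fewer of the 8 genes, and fewer of all genes, were then called at that time.

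The 8 genes occupied 8 of the first 10 places among 283 genes called lower and lower on 6 of 6 D3 arrays, ranked by the size of the mean change. DDB2 and TOX3, named here after their values were seen, hold the second and the fifth place and were not among the 8. Just inside the edge lay GPRC5B at -0.90, and just outside lay DAPK1-IT1 at -0.88, VTCN1 at -0.87 and TXNIP at -0.87.

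In onset the genes spanned a range. The share of the 50 h change already present at 8 h was 29.7% for RFTN1, 38.6% for PCP4, 42.4% for CLTCL1 and 48.5% for FREM2. It was 70.5% for COL5A2, 88.4% for CNP, 90.6% for GPRC5B and 124% for FBXO32, whose change was smallest at 50 h. Within siRNAs the share ranged from 26.8% (RFTN1) to 193% (FBXO32) in p53i cells and from 33.6% (RFTN1) to 83.2% (FBXO32) in LacZi cells. RFTN1 had the lowest share and FBXO32 the highest in both, and CLTCL1 had 27.2% in p53i cells and 67.2% in LacZi cells.

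In p53i cells the 8 genes had a median change of -0.82 after 8 h, -0.90 after 20 h and -1.28 after 50 h. In LacZi cells it was -0.64, -1.003 and -1.23 at those times. At 8 h the fall was larger than the gap between the untreated duplicates for 8 of 8 genes in p53i cells (22.5% of all genes fell by more than their gap) and for 6 of 8 in LacZi cells (21.5%), with FREM2 and CNP short of it. At 20 h it was larger for 8 of 8 in both siRNAs (24.2% of all genes in p53i cells and 25.8% in LacZi cells). At 50 h it was larger for 7 of 8 in each, all but FBXO32 in p53i cells (28.0% of all genes) and all but CNP in LacZi cells (27.7%).

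**Figure D2:**
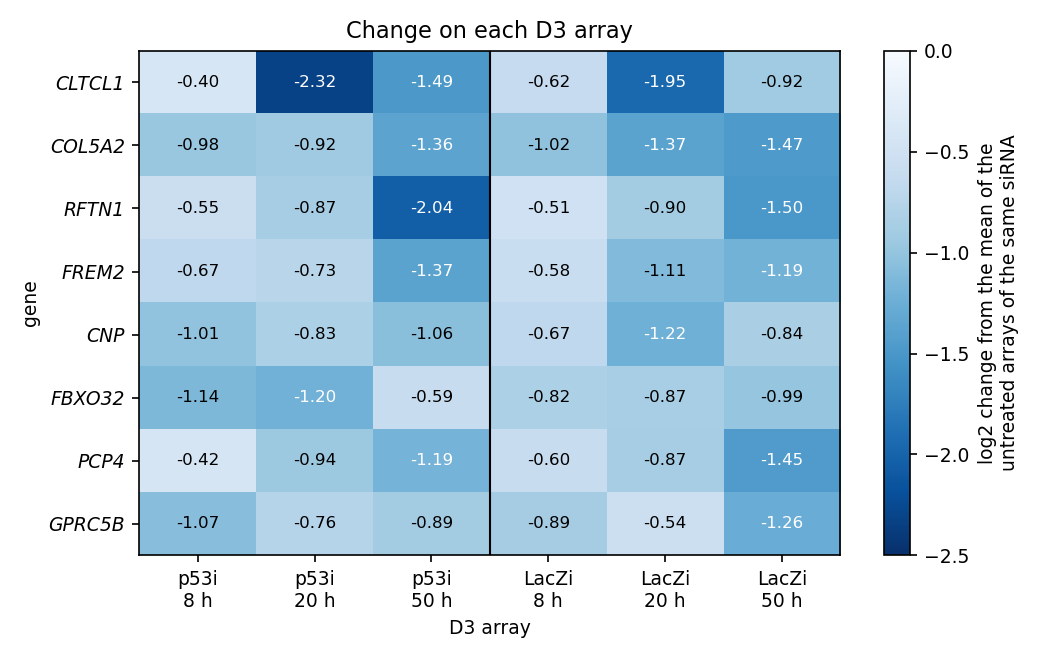
Heat map of the change in log2(signal + 16) from the untreated mean of the same siRNA, with the 8 genes as rows and the p53i and LacZi arrays at 8, 20 and 50 h of D3 as columns, where darker blue is a deeper fall. The darkest cells are CLTCL1 at 20 h in both siRNAs and RFTN1 at 50 h in p53i cells, and RFTN1 and PCP4 darken with each later time in both siRNAs.

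The differences between D3 times were tested, since they are not the contrast that picked the genes. They share the D3 arrays and the estimate of spread with that contrast. Counts of small p-values among the 8 genes are therefore not independent of the picking. From 8 to 50 h, RFTN1 was lower by a further 1.25 ± 0.22 (SE; difference -1.25, limma adjusted p = 0.0672) and PCP4 by a further 0.81 ± 0.16 (difference -0.81, adjusted p = 0.0999), each over 2 arrays a time. With the mean of each gene's probe sets in place of its brightest one, the RFTN1 difference was -0.38 and that of COL5A2, -0.42 otherwise (adjusted p = 0.524), was -0.11. CLTCL1 differed by -0.69 (adjusted p = 0.446), and by -0.43 without the p53i 50 h array. FREM2 differed by -0.66 (adjusted p = 0.429). CNP, GPRC5B and FBXO32 differed by -0.11, -0.10 and 0.19. None of the 8 passed the threshold, which 0.133% of all genes did, and 4 of 8 had an unadjusted p under 0.05, against 9.62% of all genes. The further fall of CLTCL1 from 8 to 20 h was -1.62 ± 0.27 (unadjusted p = 6.32e-05, adjusted p = 0.76), and none of the 12034 genes was called for that step, with 415 at an unadjusted p under 0.05. From 20 to 50 h CLTCL1 differed by 0.93 ± 0.27 in the other direction and RFTN1 by -0.89 ± 0.22 (adjusted p = 0.809), where 0.00831% of all genes were called. The courses therefore differ in their measured values, but with 2 arrays a time no step of these genes passed the test over all genes.

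The next question was whether the siRNA against mutant p53 moved the level of these genes, averaged over untreated and D3 arrays, a contrast that did not pick them. GPRC5B was lower in p53i cells, by 0.57 ± 0.16 (SE; limma adjusted p = 0.0494), and lower in 4 of 4 matched conditions. Its signal averaged 122 ± 55.2 in p53i cells and 190 ± 80.8 in LacZi cells (SD over all conditions, n = 5 each). It was the only one of 8 genes called, where 6.49% of all genes were. The call was lost in 9 of 10 fits that left out 1 array (adjusted p 0.0343 to 0.174 over the 10), and of these fits only the one without the first p53i untreated replicate kept it. The difference was -0.45 with the ACTB ratio as a covariate (adjusted p = 0.349) and -0.41 without the 2 arrays of highest ratio, both p53i (adjusted p = 0.298).

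CNP, FREM2 and PCP4 stood the other way, higher in p53i cells in 4 of 4 conditions, without passing the test in the full fit. The differences were 0.64 ± 0.18 for CNP (adjusted p = 0.0556), 0.55 ± 0.16 for FREM2 (adjusted p = 0.0587) and 0.32 ± 0.10 for PCP4 (adjusted p = 0.0882). CNP passed without the first LacZi untreated replicate (0.79, adjusted p = 0.0298) or without the second p53i untreated replicate (0.73, adjusted p = 0.0444), and its difference was 0.30 with the mean of its probe sets (adjusted p = 0.415). RFTN1 was higher in p53i cells in 3 of 4 conditions (0.40 ± 0.14, adjusted p = 0.107), but its difference was 0.01 with the mean of its probe sets. FBXO32 differed by 0.22, COL5A2 by -0.18 and CLTCL1 by -0.29, with adjusted p-values of 0.476, 0.424 and 0.35. An unadjusted p under 0.05 was reached by 5 of 8 genes and by 22.9% of all genes. In untreated cells alone none of the 8 was called (0.00831% of all genes; 1377 genes at an unadjusted p under 0.05, none of these 8).

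The depth of the D3 response was then compared between siRNAs, as the D3 change in p53i cells minus that in LacZi cells. The differences ran from -0.25 for CLTCL1 (95% interval -1.04 to 0.55) to 0.20 for COL5A2 (-0.36 to 0.75). For RFTN1 the difference was -0.19 (-0.83 to 0.46), for PCP4 0.12 (-0.35 to 0.60), and for FREM2 0.04 (-0.70 to 0.78). For FBXO32 it was -0.08 (-0.89 to 0.72), for CNP -0.06 (-0.91 to 0.80) and for GPRC5B -0.01 (-0.74 to 0.73). No gene of the 8 was called (adjusted p 0.951 to 0.998), nor any of the 12034 by limma, of which 645 had an unadjusted p under 0.05. The intervals reach from -1.04 to 0.80, close to the size of the D3 changes themselves, so differences within them were not detectable with these arrays. The step from 8 to 50 h differed between siRNAs by -0.78 to 0.71 over the 8 genes, again with 0 of 8 and 0 of 12034 called and 266 genes at an unadjusted p under 0.05.

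**Figure D3:**
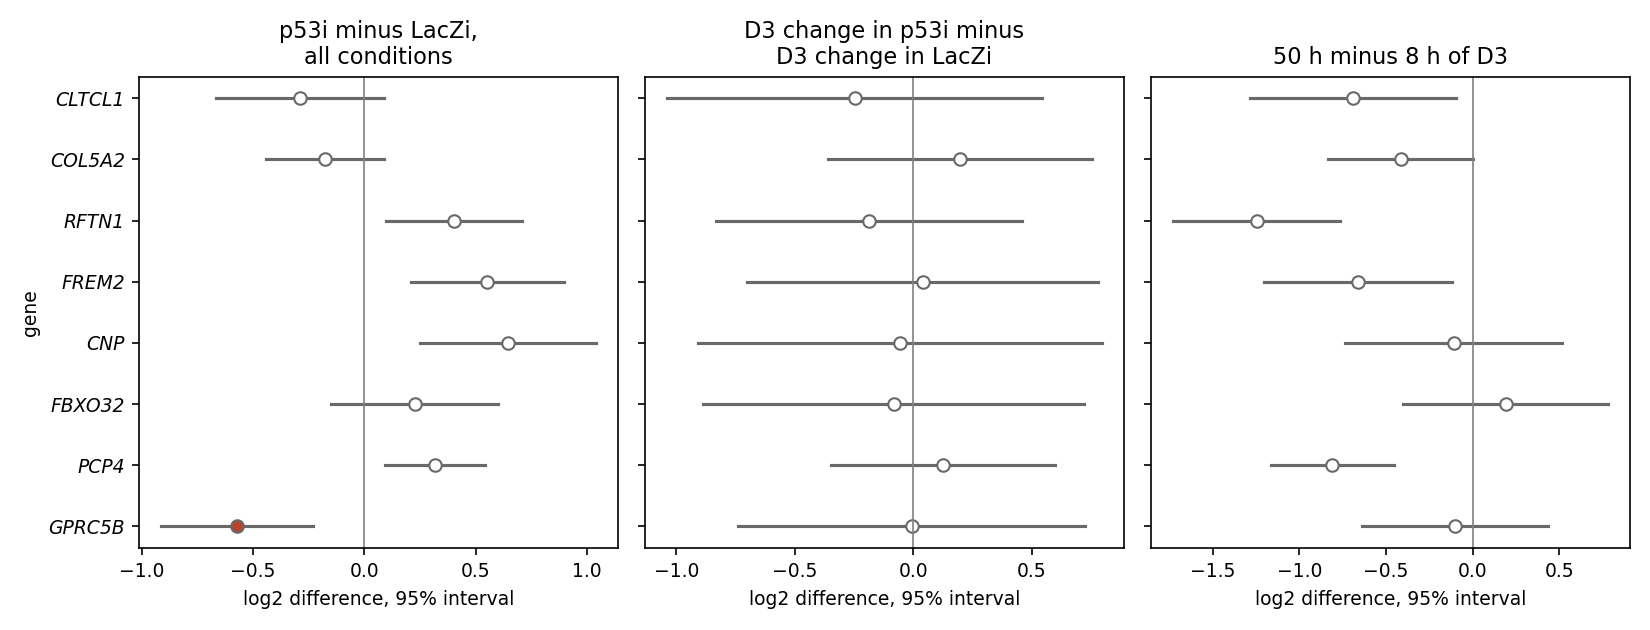
Log2 differences with 95% intervals (horizontal axes) for each of the 8 genes (vertical axis) in 3 tested contrasts, with the 1 value past the threshold filled. Every interval of the difference in D3 change between p53i and LacZi cells includes 0, and the GPRC5B interval for p53i minus LacZi over all conditions lies below 0.

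The untreated duplicates limit several of these values. The first untreated replicate was above the second in both siRNAs for 6 of 8 genes, all but CLTCL1 and COL5A2, as it was for 29.6% of all genes. The log2 gap was widest for CNP in LacZi cells (0.99) and FBXO32 in p53i cells (0.88) and narrowest for CLTCL1 (0.15 in p53i cells and 0.14 in LacZi cells). Against the lower duplicate only, the shallowest change at 8 h was -0.33 for CLTCL1 in p53i cells and -0.17 for CNP in LacZi cells. At 50 h it was -0.15 for FBXO32 in p53i cells and -0.35 for CNP in LacZi cells.

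The genes with several probe sets were read on each of them. All 7 other probe sets above the filter were lower than the untreated mean on 6 of 6 D3 arrays, and of 5 below the filter 1 was. This is the fall that picked the genes, so the counts are a description only. On their brightest probe sets 12.9% of all genes showed it. COL5A2 had a second probe set, 221730_at, with signals of 30.5 to 68.2 with D3 and 81.7 to 175 untreated and a mean change of -1.10 ± 0.22. FBXO32 had 6 probe sets above the filter, with mean changes of -1.11 to -0.52, and 4 of the 6 were higher at 50 h than at 8 h in p53i cells and 4 of 6 in LacZi cells. The second CNP probe set, 1557943_at, changed by -0.29 ± 0.24, with signals of 67.1 to 113 with D3 and 73.0 to 187 untreated, so the groups overlapped. The dim GPRC5B probe sets 203631_s_at and 228313_at changed by 0.08 and -0.01, with signals no higher than 39.7 on any array, and that of RFTN1, 1569787_at, by -0.50 ± 0.32. Probe sets of a gene share their RNA and are no replicates.

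**Figure D4:**
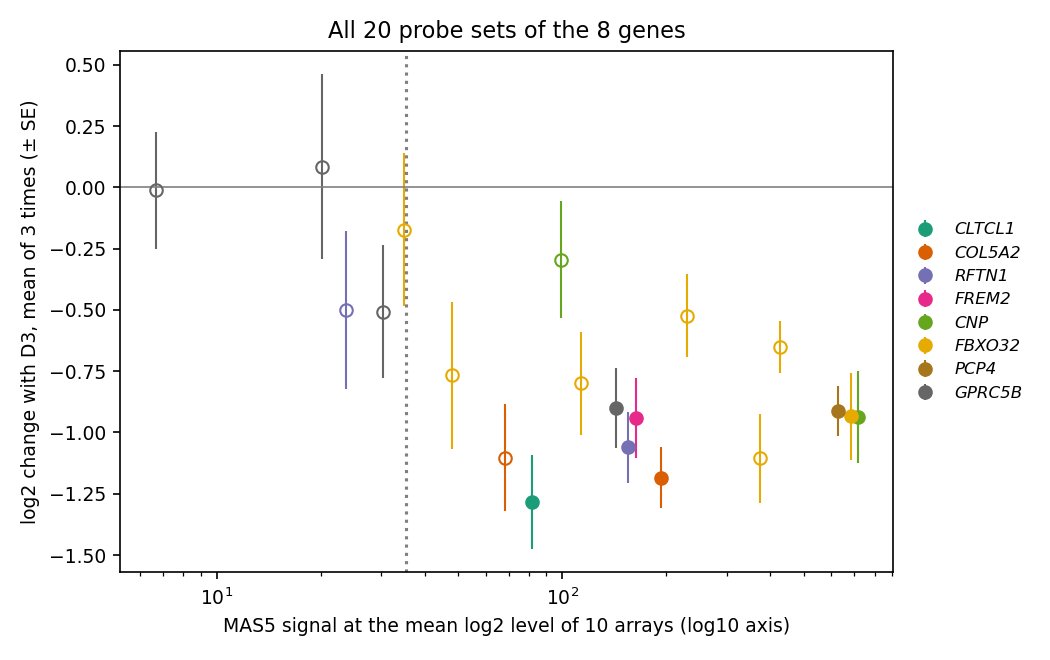
Mean D3 change in log2(signal + 16) with its SE (vertical axis) against signal on a log10 axis (horizontal axis) for the 20 probe sets of the 8 genes. Filled points are the probe sets used for each gene. The dotted line marks the filter on low signals at 35.3; the 15 probe sets to its right all lie below 0, and the 5 to its left scatter between -0.51 and 0.08.

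The relatives and partners of the 8 genes were read from lists of known members, counted by limma for D3 over the 3 times. Over all genes 4.4% were called for it and 19.4% had an unadjusted p under 0.05. Of 27 other clathrin coat and adaptor genes tested, 0 were called (3 at an unadjusted p under 0.05, median -0.02, all genes -0.0047). None of 12 other lipid raft scaffold genes was called either (2 at an unadjusted p under 0.05, median -0.09). Of 18 other collagen and collagen-processing genes, COL16A1 rose by 1.31 ± 0.23 (adjusted p = 0.0113) and none was called lower (4 at an unadjusted p under 0.05). COL5A1, the partner chain of COL5A2, had signals of 134 to 200 with D3 and 168 to 233 untreated (-0.26 ± 0.13, adjusted p = 0.306).

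Of 12 other Fraser complex and basement membrane genes, LAMB1, a laminin chain, fell by 0.44 ± 0.09 (adjusted p = 0.0184), a call lost in 6 of 10 fits without 1 array. FRAS1, the binding partner of FREM2, had a D3 change of 0.22 ± 0.13 (adjusted p = 0.411). It was higher in p53i cells by 0.75 (adjusted p = 0.00841), a call that no fit without 1 array lost. In other settings the difference was as low as 0.06, and the call was lost in 3 of 21, the ACTB ratio as a covariate among them. FREM1 and FREM3 did not pass the signal filter. Of the 12 genes, 2 had an unadjusted p under 0.05 for D3.

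Around FBXO32, 1 of 22 other FOXO target and atrophy genes was called lower, with 7 at an unadjusted p under 0.05 and a median of -0.08. The called gene was TXNIP, a thioredoxin inhibitor, with a change of -0.87 ± 0.16 (adjusted p = 0.0135). That call was lost without the first LacZi untreated replicate or the p53i 20 h array. None of 12 SCF ubiquitin ligase genes was called (4 at an unadjusted p under 0.05, median -0.13). TRIM63, the other classical muscle atrophy ligase, had signals of 2.90 to 26.6 and did not pass the filter. Of 15 other calmodulin genes around PCP4, CAMK2G rose by 0.42 ± 0.09 (adjusted p = 0.0242), a call lost in 5 of 10 fits without 1 array, and PCP4L1 did not pass the filter. Of 8 cyclic nucleotide phosphodiesterases grouped with CNP by name only, PDE4B, which breaks down cyclic AMP, rose by 0.91 ± 0.10 (adjusted p = 0.000621) in every setting tried. An unadjusted p under 0.05 was reached by 4 of the 15 calmodulin genes and 2 of the 8 phosphodiesterases.

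Of 11 other GPRC5 receptor and retinoid-responsive genes, 2 fell and 1 rose. GPRC5A, a receptor of the same family as GPRC5B, had signals of 166 to 274 with D3 and 294 to 444 untreated (-0.73 ± 0.15, adjusted p = 0.0197). CRABP2, a carrier of retinoic acid, changed by -0.68 ± 0.15 (adjusted p = 0.0263), and RARA, a retinoic acid receptor, by 0.49 ± 0.11 (adjusted p = 0.0281). These calls were lost in 6, 7 and 6 of 10 fits without 1 array. GPRC5C changed by -0.04 ± 0.18. The list's median was -0.31 without GPRC5B, and 5 of the 11 genes had an unadjusted p under 0.05. Of 12 established calcitriol-induced genes 8 rose and 0 fell (median 0.92).

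Profiles of the 8 genes over the 10 arrays had Pearson correlations of 0.37 (CNP and GPRC5B) to 0.95 (RFTN1 and PCP4) over 28 pairs, with a median of 0.74; the arrays, their scaling and the common fall with D3 are shared by all pairs. The other genes whose profiles were most like the mean of the 8 were RMI2 (r = 0.977), BIRC5 (r = 0.969), ARRB1 (r = 0.967), NUP205 (r = 0.966) and EHF (r = 0.966). RMI2 is a subunit of a complex that resolves DNA crossovers, BIRC5 (survivin) acts in cell division and cell survival, ARRB1 is an arrestin, NUP205 is a nuclear pore protein and EHF is an epithelial transcription factor. Their D3 changes were smaller than those of the 8 genes, from -0.83 for EHF to -0.32 for NUP205 (adjusted p = 0.0525, not called). Without the first LacZi untreated replicate RMI2, BIRC5 and ARRB1 were not called either.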

How the data were processed

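RNA of 10 SKBR3 samples was measured on 1-colour Affymetrix arrays. Per the submitters' processing notes the deposited intensities are MAS5 signals, scaled array by array by the authors (version not given in the sources used here). Samples were grouped from their own labels into 8 groups, and depth does not apply to arrays, whose number limits the precision. Nothing states separate cultures for the D3 arrays, so p-values measure the spread between these samples, which may be technical.

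Probe sets with 1 gene symbol in the platform annotation (41091 of 54675) were used. Deposited signals were converted to log2(signal + 16), which understates changes of dim genes. Each gene was represented by its brightest probe set, and the upper 50% of probe sets were kept (signal above 35.3, 12034 genes). Limma 3.58.1 in R 4.3.3 (lmFit, eBayes with an intensity trend, two-sided, Benjamini-Hochberg over all genes, threshold 0.05) fitted siRNA plus D3 time, with a siRNA-by-D3 term for the interaction and group means for untreated cells. A lone array per siRNA at each D3 time is assumed to vary like the others. Promoter sequences are RefSeq's (GRCh38.p14).

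The 8 genes, the lists and the tests were chosen with earlier results of these data known. Other genes were named by rule: the next 3 falls, the 5 most similar profiles, CYP24A1, and up to 4 called genes or the paralogs from each list. Alternatives changed the normalization, offset, filter, probe-set rule, trend, ACTB ratio and replicate block, and left out each array.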

Additional observations from a re-analysis of the deposited data

How the results depend on the processing

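The D3 change averaged over the 3 times kept its sign for all 8 genes in every setting, and 160 of 171 values also kept their side of the threshold; the causes of the changes below were not tested. For p53i against LacZi over all conditions the count of called genes was 0 with median centring, no offset, an offset of 64, no signal filter, the mean of a gene's probe sets, every probe set as its own entry, no intensity trend, the ACTB ratio as a covariate, and with the 2 arrays of highest ACTB ratio left out. Over all genes 0.781% to 6.77% were called in these settings. GPRC5B did not pass the filter with the mean of its probe sets, so it was not tested there. The count at 8 h of D3 was 0 with no offset, no filter, every probe set and no trend. Over all genes 0.133%, 0.0708%, 0.104% and 0.0415% were called in these settings, against 0.175% in the main fit. Without those 2 arrays, which leaves 1 array at 20 h, fewer of the 8 genes and fewer of all genes were called at 8 and 20 h. With only the upper 25% of probe sets, only COL5A2, CNP, FBXO32 and PCP4 were tested. All 4 were called over the 3 times (6.59% of all genes) and 3 at 50 h (6.73%). Leaving out 1 array gave 5 to 8 genes over the 3 times, 0 to 1 at 8 h, 0 to 4 at 20 h, 3 to 8 at 50 h, 0 for 50 against 8 h, 0 to 1 for p53i against LacZi over all conditions, and 0 in untreated cells and for the interaction. Over all genes the share called in these fits also varied, from 1.03% to 7.05% over the 3 times and from 0.00833% to 0.233% at 8 h. It was 0.0416% to 1.61% at 20 h, 0.357% to 7.73% at 50 h and 1.4% to 8.6% for p53i against LacZi over all conditions. For 50 against 8 h, untreated cells and the interaction the share of all genes called varied too. Each was highest without the first p53i untreated replicate, where genes outside the 8 were called for all of these comparisons. That fit leaves 1 untreated array in p53i cells. The 8 to 50 h step between siRNAs could not be fitted without an 8 or 50 h array.

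The untreated replicate numbers deviated together only weakly (r = 0.21 over 12034 genes, 2 pairs), so they are not known to pair the samples. The replicate block set the second untreated replicate of each siRNA apart, so all D3 arrays were compared with the first untreated replicates only. These were the higher ones in both siRNAs for 6 of 8 genes, so the falls of those genes deepen by construction in this setting. With the block, 4 genes were called at 8 h (0.532% of all genes) and 8 at 20 h (3.32%). For 50 against 8 h, 2 were called (0.615%). For p53i against LacZi the count was 4 over all conditions (10.8% of all genes) and 1 in untreated cells (4.66%). In each of these comparisons the share of all genes called was also above that in the main fit.

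The D3 difference between siRNAs turned its sign for FREM2 (-0.0873) and PCP4 (-0.00272) with median centring, FREM2 (-0.0205) and GPRC5B (0.0502) with an offset of 64, CNP (0.0114) with the mean of probe sets, FREM2 (-0.022) with the ACTB covariate, and COL5A2 (-0.0255) and FREM2 (-0.327) without the 2 arrays. FBXO32 in p53i against LacZi cells was -0.0277 with the mean of probe sets. Leaving out 1 array, the D3 difference between siRNAs ran from -0.55 to 0.44 for CNP, -0.52 to 0.36 for FBXO32, -0.25 to 0.24 for GPRC5B, -0.28 to 0.36 for FREM2, -0.0877 to 0.338 for PCP4, -0.48 to -0.08 for CLTCL1, 0.07 to 0.30 for COL5A2 and -0.33 to -0.0087 for RFTN1. The 50 against 8 h difference ran from -0.307 to 0.0869 for CNP, -0.34 to 0.13 for GPRC5B, -0.0921 to 0.472 for FBXO32, -0.96 to -0.43 for CLTCL1 and -1.51 to -0.98 for RFTN1. CNP in p53i against LacZi cells was also called with the upper 25% of probe sets (adjusted p = 0.0498).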
